A study of Homo sapiens with 4 samples.

Results

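The glycosyltransferases of the Golgi that build N- and O-glycans were followed in QK-knockdown Hs683 cells, a human glioma cell line, given miR-20a or miR-NT, a control microRNA with a scrambled sequence. Members were the genes whose current symbol belongs to the families FUT, MGAT, B4GALT, B3GALT, B3GNT, ST3GAL, ST6GAL (with ST6GALNAC), ST8SIA, GALNT or GCNT. This gave 80 of the 17716 genes in the deposited table. Genes were thus chosen by name. The one measured value used was the mean of the 4 arrays: where a gene had several probe sets, the probe set was selected on the highest mean. The gene set was proposed with earlier results of these arrays known, so its difference between the groups is a description. By symbol the rule also took in 2 antisense RNAs, B3GALT5-AS1 and ST8SIA6-AS1, and 2 genes annotated as transcribed pseudogenes, GCNT7 and MGAT4EP, which left 76 protein-coding members. Several coding members also, or mainly, act on glycolipids or proteoglycan linkers, among them B4GALT6, B3GALT4, ST8SIA5 and B4GALT7.

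The groups were 2 arrays of QK-knockdown Hs683 cells transduced with miR-20a and 2 arrays of QK-knockdown Hs683 cells transduced with miR-NT. All 4 thus carried the knockdown of QK, now named QKI, which encodes a glial RNA-binding protein, and cells without it were not analysed here. Hs683 is 1 established line, and nothing in the labels tells whether a group's arrays came from separate cultures. The p-values therefore describe the spread between arrays, possibly a technical one. In RNA of whole cultures, fewer cells that express a gene and less of its RNA per cell cannot be told apart. QKI measured 7.52 and 7.08 with miR-20a, against 8.14 and 7.92 with miR-NT, on the log2 scale. Of the markers of glioma and astroglial cells, VIM measured 14.19 and 14.02 with miR-20a and 14.32 and 14.27 with miR-NT, and CD44 measured 10.53 and 10.08 with miR-20a and 11.24 and 11.12 with miR-NT, while GFAP, S100B, NES, AQP4 and SLC1A3 were among the dimmest 30% of genes. Of the other marker lists, 2 of 5 oligodendroglial (SOX10, MBP) and 3 of 5 immune genes measured (CD3E, AIF1, ITGAM) were above that limit. So were 2 of 5 epithelial (KRT8, KRT18), 1 of 4 endothelial (PECAM1) and 4 of 4 neuronal genes (RBFOX3, SYP, SNAP25, TUBB3). KRT18 measured 12.73 and 12.54 with miR-20a and 12.72 and 12.60 with miR-NT. TUBB3 measured 12.68 and 12.23 with miR-20a and 12.81 and 12.74 with miR-NT. OLIG2, PTPRC, EPCAM, CDH1 and CDH5 were among the genes below the limit. The summed log2 level of the oligodendroglial list was 27.48 to 27.80 with miR-20a and 26.59 to 27.06 with miR-NT. The means of all 5 of its measured genes were higher with miR-20a. Of these, MBP (0.23) and SOX10 (0.12) were above the limit, and MOG (0.28), OLIG1 (0.13) and OLIG2 (0.06) were among the dimmest 30% of genes. The sums include such dim genes. The glioma or astroglial sum was 53.20 to 53.43 with miR-20a and 54.41 to 54.55 with miR-NT, and its genes went both ways. CD44 (-0.87), AQP4 (-0.38), VIM (-0.19), SOX2 (-0.12) and SLC1A3 (-0.12) were lower with miR-20a, and S100B (0.23), GFAP (0.19) and NES (0.09) were higher. The groups did not overlap in the oligodendroglial and glioma or astroglial sums, and they overlapped in those of the other 4 lists. Genes of these 4 lists went both ways. CD3E (0.28), PECAM1 (0.30) and RBFOX3 (0.32) were higher with miR-20a, while PTPRC (-0.24), CDH5 (-0.15), SNAP25 (-0.21) and TUBB3 (-0.32) were lower. The part of such markers in the results below was not tested. Signal from a control probe set at the 5' end of ACTB, a sign of RNA or labelling quality, was 11.59 and 10.43 with miR-20a and 12.78 and 12.66 with miR-NT. The same control for GAPDH was at 13.17 and 12.30 with miR-20a and 13.89 and 13.81 with miR-NT. The array of miR-20a replicate 2 was thus the lowest in both controls, and values of both miR-20a arrays are given below so that members can be set beside it.

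N-glycans are attached to proteins in the endoplasmic reticulum and rebuilt in the Golgi, where MGAT enzymes start the antennae, FUT8 adds the core fucose, B4GALT and B3GNT enzymes extend the antennae, and sialyltransferases and other fucosyltransferases cap them. Mucin-type O-glycans are started by the GALNT family and branched by GCNT enzymes. In gliomas, core fucose and branched N-glycans on integrins and growth factor receptors are known to bear on adhesion and signalling.

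The microRNA that separates the groups is shown first, from RefSeq (GRCh38.p14), with its seed, bases 2 to 8, in capitals.
hsa-miR-20a-5p, chr13:91351072-91351094, plus strand: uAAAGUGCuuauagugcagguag
Sites for this seed in transcripts were not searched, since transcript sequences were not used here.

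Promoter windows are shown for the 4 tested members with a log2 fold change of -0.5 or lower, so that the sequence at their starts can be compared. Each runs from 250 bases before to 50 after an annotated start (RefSeq, GRCh38.p14), and for FUT8 and MGAT4B, which have 3 and 2 such windows, the one with the most motif matches is given. Capitals mark matches, on either strand, to the GC box GGGCGG, the CCAAT box CCAAT, the E box CACGTG, the TATA box TATAAA and the Golgi apparatus stress response element ACGTGGC, which overlaps the E box where a C precedes it. In MGAT4B, 2 GC boxes overlap.
FUT8, chr14:65411613-65411912, plus strand: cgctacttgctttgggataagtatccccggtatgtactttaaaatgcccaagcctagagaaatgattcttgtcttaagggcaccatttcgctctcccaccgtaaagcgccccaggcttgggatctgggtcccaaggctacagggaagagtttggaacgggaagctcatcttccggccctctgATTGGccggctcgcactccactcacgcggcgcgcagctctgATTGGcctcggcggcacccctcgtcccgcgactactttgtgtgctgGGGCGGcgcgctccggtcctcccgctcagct
MGAT4B, chr5:179806817-179807116, minus strand: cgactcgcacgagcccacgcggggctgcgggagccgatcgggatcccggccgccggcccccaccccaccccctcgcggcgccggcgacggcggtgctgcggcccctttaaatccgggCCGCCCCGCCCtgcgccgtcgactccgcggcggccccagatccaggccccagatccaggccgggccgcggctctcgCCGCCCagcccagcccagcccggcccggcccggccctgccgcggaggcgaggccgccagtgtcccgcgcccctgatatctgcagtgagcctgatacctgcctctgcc
MGAT2, chr14:49620549-49620848, plus strand: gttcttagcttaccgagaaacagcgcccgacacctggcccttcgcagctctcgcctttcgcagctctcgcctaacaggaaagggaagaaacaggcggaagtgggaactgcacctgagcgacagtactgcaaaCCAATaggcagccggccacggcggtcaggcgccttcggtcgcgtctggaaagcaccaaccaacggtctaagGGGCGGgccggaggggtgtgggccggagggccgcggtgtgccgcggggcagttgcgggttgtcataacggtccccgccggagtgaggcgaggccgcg
ST6GALNAC4, chr9:127916992-127917291, minus strand: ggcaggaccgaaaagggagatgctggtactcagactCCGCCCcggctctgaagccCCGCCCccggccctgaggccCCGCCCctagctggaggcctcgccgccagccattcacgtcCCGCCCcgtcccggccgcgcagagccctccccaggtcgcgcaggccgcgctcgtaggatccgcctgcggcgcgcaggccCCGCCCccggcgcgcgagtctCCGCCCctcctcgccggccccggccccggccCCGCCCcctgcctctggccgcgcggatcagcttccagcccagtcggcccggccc
The FUT8 window held 2 CCAAT boxes and 1 GC box, and that of ST6GALNAC4 held 7 GC boxes. Of the 76 coding members 58 had a window, 96 windows in all. GC boxes were in 59.4% of these and in 45.0% of all 35116 windows of the table, whose GC contents were 62.7% and 57.5%. CCAAT boxes were in 28.1% of the members' windows and in 34.6% of all. TATA boxes were in 2.08% of the members' windows and in 11.5% of all. The Golgi stress element was in 4.17% of the members' windows and in 3.22% of all, and the E box in 7.29% and 7.26%. Which start the cells used was not measured, and the matches are a description of letters only.

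Of the 80 members 49 passed the filter on dim genes, which left out the lowest 30% by mean over all arrays. They were compared with limma over all 12401 genes that passed. No member passed at an adjusted p under 0.05 in either direction. Over all genes 0.00806% were called lower, which is 1 gene, and 0% higher. At an unadjusted limma p under 0.05, 10 of the 49 members were lower with miR-20a and 1 was higher, against a background of 13.2% lower and 5.82% higher among all genes tested. In 19 members both miR-20a values were under both miR-NT values (38.8%), and in 10 they were over them (20.4%). The background for these was 31.1% and 25.1%. The log2 fold change, miR-20a minus miR-NT, was below 0 in 32 members (65.3%) and above 0 in 17, and it was below 0 in 53.8% of all genes tested. The median was -0.10 in the members and -0.02 in all genes tested. The log2 fold change was -0.5 or lower in 4 members (8.16%) and in 3.81% of all genes tested.

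**Figure D1:**
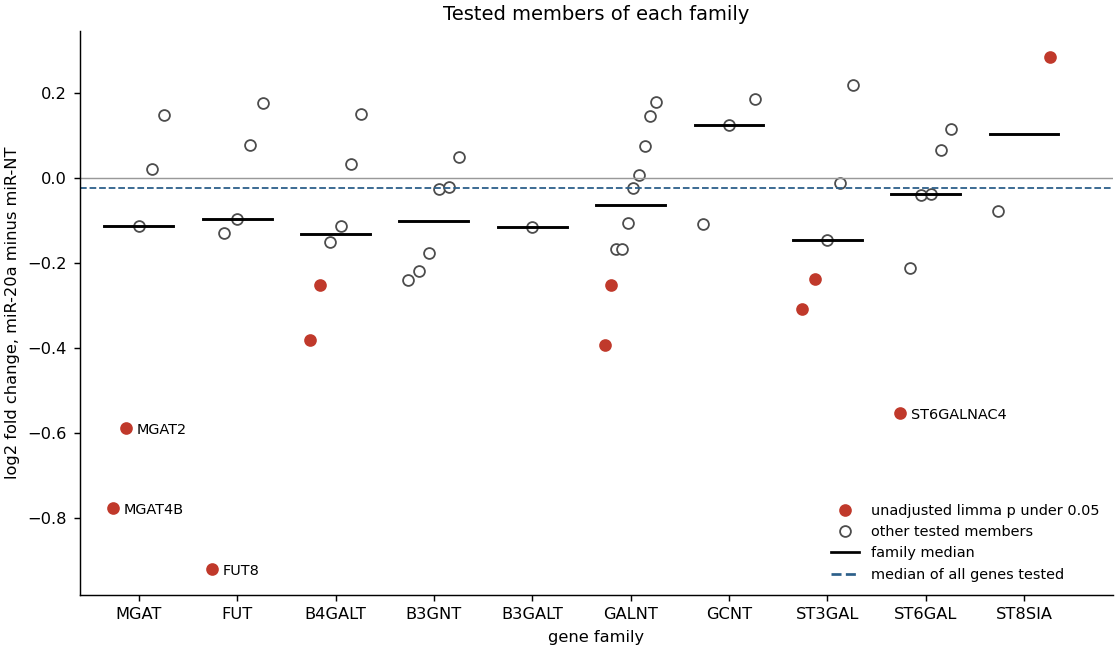
Log2 fold change (miR-20a minus miR-NT, y axis) of the 49 tested members in their 10 families (x axis), each point a gene, with family medians as black lines and the median of all genes tested (-0.02) as a dashed line. Most members lie between -0.4 and 0.3, and FUT8, MGAT4B, MGAT2 and ST6GALNAC4 lie apart below them.

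Core fucosylation of N-glycans rests on a single enzyme, FUT8, and this gene had the lowest log2 fold change of the tested members. FUT8 measured 6.06 and 6.09 with miR-20a, against 6.97 and 7.01 with miR-NT. Replicates differed by 0.03 with miR-20a and by 0.04 with miR-NT, and the groups did not overlap. The difference was 1.89-fold (log2 fold change -0.92, SE 0.09, 95% interval -1.14 to -0.70), with rank 3 by p among the 12401 genes, and it did not pass over all genes (limma adjusted p = 0.067). FUT8 passed after quantile normalization and after median centring (limma adjusted p = 0.0419 and 0.0417), with an intensity trend and robust prior (0.0353) and with the dimmest 50% left out (0.0422), and was at 0.139 with the replicate number as a block. In a fit that lacks an array, that array's group takes its spread from the other group. Whether FUT8 passed there is therefore not read as a property of this gene. With the miR-20a arrays left out in turn, its log2 fold change was -0.91 (replicate 1 out) and -0.93 (replicate 2 out). With the miR-NT arrays left out in turn, it was -0.94 (replicate 1 out) and -0.90 (replicate 2 out). The value hardly moved with the ACTB 5' control as a covariate (log2 fold change -0.97, SE 0.25 as for every named member, limma adjusted p = 0.0934). FUT8 differed little between the miR-20a arrays, between which that control differed more than between the miR-NT arrays. The part of RNA or labelling quality in the difference of FUT8 between the groups was not tested.

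Other fucosyltransferases lay nearer 0. FUT4, which caps antennae with the fucose of Lewis x, measured 7.31 and 7.32 with miR-20a and 7.08 and 7.20 with miR-NT. Its miR-20a arrays were both the higher, by 0.18 on the log2 scale (95% interval -0.05 to 0.41, limma adjusted p = 0.353). FUT1 and FUT2, which make the H antigen, and FUT5 overlapped between the groups. FUT1 measured 6.67 and 6.26 with miR-20a and 6.59 and 6.60 with miR-NT, so that only replicate 2 was low. The median of the 5 tested FUT genes was -0.10. FUT3, FUT6, FUT7 and FUT9 were left out as dim, with log2 fold changes from -0.28 to 0.09.

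The MGAT family, whose enzymes start and branch the antennae of N-glycans, was split. MGAT1, which makes the first step towards hybrid and complex glycans, measured 10.22 and 10.11 with miR-20a and 10.21 and 10.08 with miR-NT. The groups overlapped, and the 95% interval of the log2 fold change ran from -0.22 to 0.26 (limma adjusted p = 0.902). MGAT2, which acts after MGAT1 and is needed for complex glycans, measured 8.43 and 8.03 with miR-20a, against 8.87 and 8.76 with miR-NT. It was 1.50-fold lower (log2 fold change -0.59, SE 0.14), with rank 368 and short of the threshold (limma adjusted p = 0.124). MGAT4B, which starts a further branch of complex glycans, measured 9.94 and 9.46 with miR-20a, against 10.47 and 10.47 with miR-NT. This was 1.71-fold lower (log2 fold change -0.78, SE 0.16, limma adjusted p = 0.0963). Both MGAT2 and MGAT4B were lower on replicate 2 than on replicate 1 of miR-20a, by -0.40 and -0.48, as the ACTB 5' control was.

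With that control as a covariate, the log2 fold change was 0.01 for MGAT2 (SE 0.25, limma adjusted p = 0.999) and -0.08 for MGAT4B (SE 0.25, limma adjusted p = 0.995). Without miR-20a replicate 2, it was -0.39 for MGAT2 and -0.54 for MGAT4B. Without miR-20a replicate 1 the values were -0.79 for MGAT2 and -1.02 for MGAT4B.

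**Figure D2:**
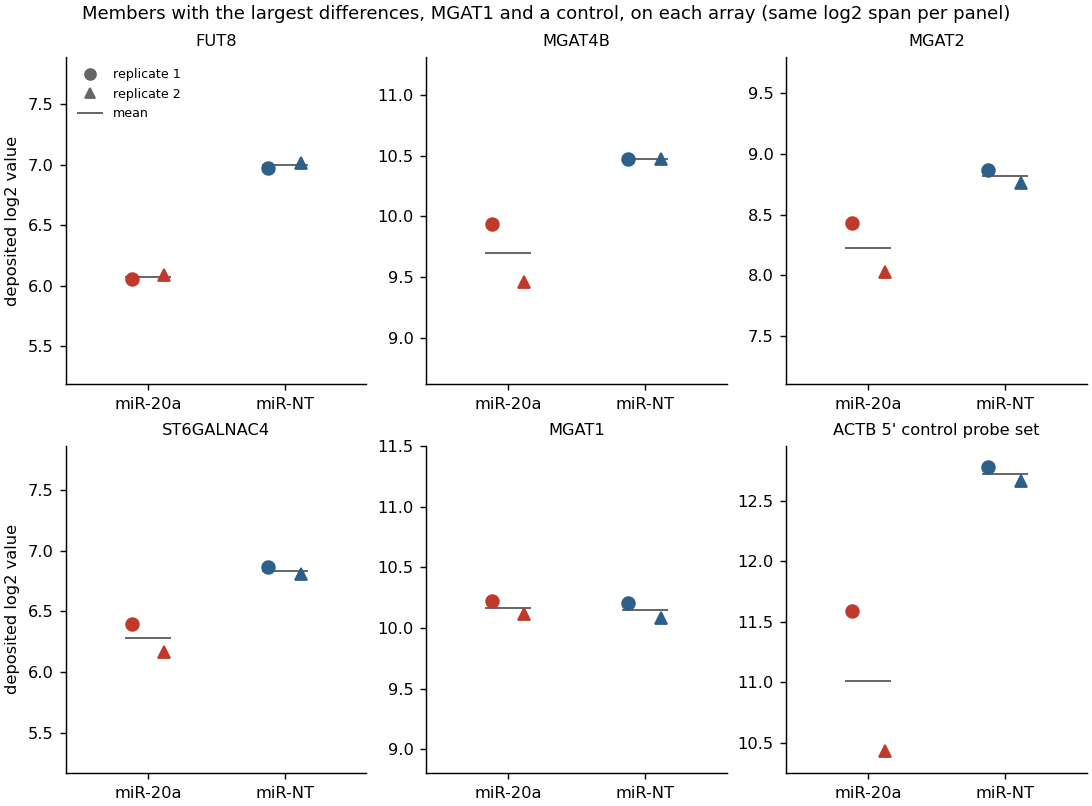
Deposited log2 value (y axis, the same span in every panel) on each array of miR-20a and miR-NT (x axis) for FUT8, MGAT4B, MGAT2, ST6GALNAC4 and MGAT1 and for the ACTB 5' control, with circles for replicate 1, triangles for replicate 2 and a line for the mean. The miR-20a arrays of FUT8 coincide at 6.06 and 6.09, whereas replicate 2 is the lower in MGAT4B, MGAT2, ST6GALNAC4 and the control.

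MGAT5, which starts the branch favoured for long lactosamine chains, measured 10.10 and 10.07 with miR-20a and 10.23 and 10.17 with miR-NT. Its log2 fold change of -0.11 had a 95% interval from -0.33 to 0.11 (limma adjusted p = 0.508). MGAT5B, a relative of MGAT5 that acts on O-mannosyl glycans in brain, measured 6.76 and 6.77 with miR-20a and 6.56 and 6.67 with miR-NT, a log2 fold change of 0.15. The bisecting enzyme MGAT3 as well as MGAT4A, MGAT4C and MGAT4EP were left out as dim, with log2 fold changes from 0.01 to 0.08. The median of the 5 tested MGAT genes was -0.11, and 2 of them were lower at an unadjusted p under 0.05.

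Among the galactosyltransferases of the B4GALT family, B4GALT4, which adds galactose to sulfated N-acetylglucosamine, measured 7.70 and 7.63 with miR-20a, against 7.99 and 8.11 with miR-NT. The groups did not overlap, and the log2 fold change was -0.38 (SE 0.10, limma adjusted p = 0.143). It was -0.30 with the ACTB 5' covariate. B4GALT6, a lactosylceramide synthase, measured 6.59 on both miR-20a arrays and 6.89 and 6.79 with miR-NT, a log2 fold change of -0.25 (SE 0.10, limma adjusted p = 0.238). Another probe set of B4GALT6 measured 6.79 and 6.33 with miR-20a and 6.35 and 6.45 with miR-NT, a log2 fold change of 0.16, so that the direction of B4GALT6 depends on the probe set. B4GALT5, also a lactosylceramide synthase, measured 10.29 and 10.38 with miR-20a and 10.47 and 10.43 with miR-NT. Its log2 fold change was -0.11 (95% interval -0.34 to 0.11, limma adjusted p = 0.511).

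B4GALT2 and B4GALT3, which act on N-glycan antennae, were at 0.15 and 0.03 on the scale of the log2 fold change, and B4GALT7, which works on the linker of glycosaminoglycans, at -0.15. Of the 6 tested B4GALT genes 4 had both miR-20a arrays below both miR-NT arrays and 1, B4GALT2, had both above, where 31.1% and 25.1% of all genes did. The listed probe set of B4GALT1 was left out as dim, at 4.30 and 4.51 with miR-20a and 4.71 and 4.49 with miR-NT.

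The B3GNT enzymes add N-acetylglucosamine to galactose and thereby build lactosamine chains. B3GNT2, the main polylactosamine enzyme of the family, measured 8.11 and 7.99 with miR-20a and 8.30 and 8.15 with miR-NT (log2 fold change -0.18, 95% interval -0.42 to 0.07). B3GNT9 measured 8.32 and 8.04 with miR-20a and 8.46 and 8.38 with miR-NT. Its log2 fold change of -0.24 (limma adjusted p = 0.313) became 0.18 with the ACTB 5' covariate. Leaving out miR-20a replicate 1 gave -0.38, and leaving out replicate 2 of that group gave -0.10. Its lowest array was again miR-20a replicate 2. B3GNT4 measured 6.68 and 6.78 with miR-20a and 6.99 and 6.90 with miR-NT, a log2 fold change of -0.22 (limma adjusted p = 0.286), which was -0.36 with the covariate. B3GNT5, which starts glycolipids of the lacto series, and B3GNT3 overlapped between groups, and B3GNT6, which makes core 3 O-glycans, was at 0.05. In the B3GALT family, B3GALT4, a ganglioside enzyme, was the 1 member tested. It measured 6.38 and 6.25 with miR-20a and 6.48 and 6.38 with miR-NT, a log2 fold change of -0.11 (limma adjusted p = 0.53) that turned to 0.09 with the covariate.

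The GALNT family places the first sugar of mucin-type O-glycans. GALNT1 measured 11.27 and 11.16 with miR-20a, against 11.48 and 11.45 with miR-NT. The groups did not overlap, and the log2 fold change was -0.25 (SE 0.10, limma adjusted p = 0.239), or -0.10 after quantile normalization and -0.09 with the ACTB 5' covariate. GALNT10, which prefers peptides that already carry such a sugar, measured 6.67 and 6.93 with miR-20a and 7.29 and 7.10 with miR-NT. Here replicate 1 of miR-20a was the lowest, the opposite order from the ACTB 5' control. The log2 fold change of GALNT10 was -0.39 (SE 0.13, limma adjusted p = 0.188), and -0.74 with that covariate (limma adjusted p = 0.295).

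GALNT2 was read by a pair of probe sets of nearly equal brightness that disagreed. That with the higher mean measured 8.07 and 7.94 with miR-20a and 7.92 and 7.79 with miR-NT, a log2 fold change of 0.15. The other measured 7.93 and 7.57 with miR-20a and 8.10 and 7.99 with miR-NT, a log2 fold change of -0.29, so that no direction can be given for GALNT2. Of the 10 tested GALNT genes 3 had both miR-20a arrays lower (GALNT1, GALNT10 and GALNT18), 3 had both higher (GALNT2, GALNT3 and GALNT11) and 4 overlapped, near the 31.1% and 25.1% of all genes. Their median was -0.06. The 7 dim GALNT genes lay between -0.14 and 0.20.

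**Figure D3:**
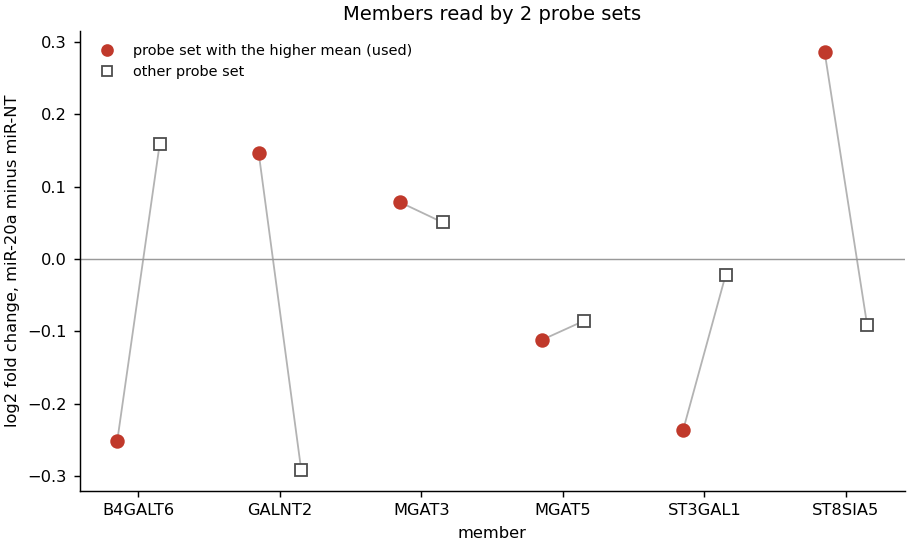
Log2 fold change (miR-20a minus miR-NT, y axis) of both probe sets of the 6 members with more than 1 (x axis), with a filled circle for the brighter probe set, which was used, and an open square for the other. The pairs of B4GALT6, GALNT2 and ST8SIA5 lie on opposite sides of 0, at -0.25 and 0.16, 0.15 and -0.29, and 0.29 and -0.09, while those of MGAT3 and MGAT5 lie close together.

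The GCNT enzymes branch O-glycans and lactosamine chains. GCNT2, the enzyme of the I antigen, measured 9.33 and 9.45 with miR-20a and 9.29 and 9.24 with miR-NT (log2 fold change 0.13, 95% interval -0.11 to 0.36, limma adjusted p = 0.482), and was at -0.04 with the ACTB 5' covariate. GCNT1, which makes core 2 branches, measured 7.05 and 7.03 with miR-20a and 7.09 and 6.62 with miR-NT, where the miR-NT pair spanned the miR-20a pair. GCNT3 overlapped as well, at a log2 fold change of -0.11.

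Sialyltransferases end glycan chains. ST6GALNAC4, which adds sialic acid to the inner sugar of sialylated O-glycans, measured 6.40 and 6.17 with miR-20a, against 6.87 and 6.81 with miR-NT. It was 1.47-fold lower (log2 fold change -0.55, SE 0.11), with rank 170 and short of the threshold (limma adjusted p = 0.0981). With the ACTB 5' covariate it was at -0.21 (SE 0.25, limma adjusted p = 0.972), and its lower miR-20a array was that with the lower control signal. The other tested ST6GALNAC genes overlapped between groups. ST6GALNAC2, for example, measured 7.08 and 7.36 with miR-20a and 7.10 and 7.41 with miR-NT, so that the replicate number separated its arrays more than the microRNA did (log2 fold change -0.04, 95% interval -0.37 to 0.29). With the covariate ST6GALNAC2 was at -0.49 (limma adjusted p = 0.734). ST6GAL1, the enzyme that caps N-glycans of many cells, and ST6GAL2 were left out as dim.

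ST3GAL2 and ST3GAL1 both sialylate the core of O-glycans, and ST3GAL2 also acts on gangliosides. ST3GAL2 measured 6.87 and 6.83 with miR-20a, against 7.25 and 7.07 with miR-NT (log2 fold change -0.31, SE 0.11, limma adjusted p = 0.205). ST3GAL1 measured 7.90 and 7.96 with miR-20a, against 8.23 and 8.11 with miR-NT (log2 fold change -0.24, limma adjusted p = 0.26). The groups did not overlap in either gene, and the ACTB 5' covariate left them at -0.23 for ST3GAL2 and -0.30 for ST3GAL1. A dimmer probe set of ST3GAL1 was at -0.02. ST3GAL3, which caps antennae, measured 9.88 and 10.04 with miR-20a and 10.12 and 10.10 with miR-NT, a log2 fold change of -0.14 (limma adjusted p = 0.437). ST3GAL6 had both miR-20a arrays above both miR-NT arrays, at 6.81 and 6.85 with miR-20a and 6.54 and 6.69 with miR-NT (log2 fold change 0.22, 95% interval -0.02 to 0.46). ST3GAL4 overlapped. All 5 listed ST3GAL genes were tested, and their median was -0.14.

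ST8SIA5, a ganglioside sialyltransferase, was the member that was higher at an unadjusted p under 0.05. It measured 6.00 and 6.10 with miR-20a, against 5.87 and 5.66 with miR-NT (log2 fold change 0.29, SE 0.11, limma adjusted p = 0.239). Its dimmer probe set was at -0.09, with 4.73 and 4.68 with miR-20a and 4.74 and 4.85 with miR-NT. ST8SIA1, which makes the glioma ganglioside GD3, and the polysialic acid enzymes ST8SIA2 and ST8SIA4 were left out as dim, and the antisense RNA ST8SIA6-AS1 overlapped between groups. The 31 dim members lay between -0.28 and 0.28. By mean over all arrays, GALNT16 (5.41) and MGAT3 (5.40) were just under the limit of the filter, and GALNT12 (5.46) and ST6GALNAC1 (5.53) just over it.

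**Figure D4:**
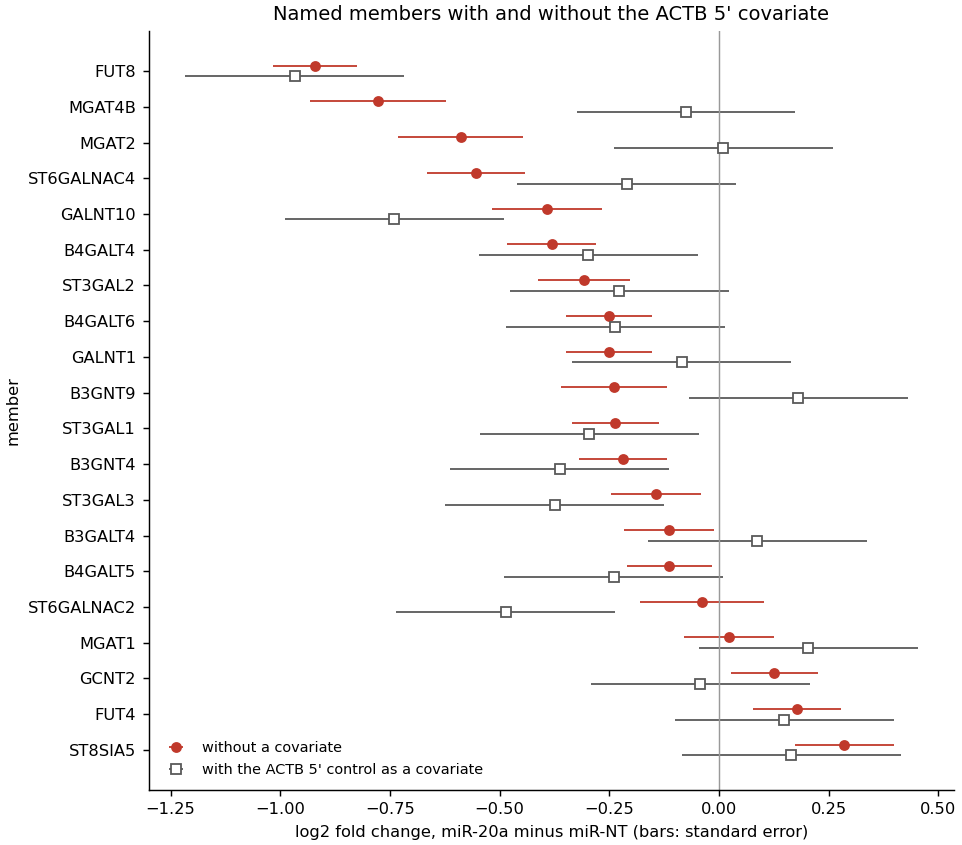
Log2 fold change (miR-20a minus miR-NT, x axis, bars for the standard error) of 20 members (y axis) without a covariate (filled circles) and with the ACTB 5' control as a covariate (open squares). With the covariate the standard error is the same, 0.25, for every member. FUT8 stays near -0.9 in both fits, MGAT4B and MGAT2 move to -0.08 and 0.01, and GALNT10 moves away from 0 to -0.74.

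The ACTB 5' covariate leaves 1 residual degree of freedom and follows the group closely, so that its values describe how each member lies beside the control and do not divide the difference between them. In that fit the standard error was 0.25 for every named member. It is a spread shared across genes, so it and the p-values do not reflect a member's own spread. The ACTB and GAPDH 5' controls were both lower on each miR-20a array than on either miR-NT array. The part of RNA or labelling quality in the values of the members, FUT8, MGAT2, MGAT4B and ST6GALNAC4 included, was not tested.

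Genes that act before and around these enzymes were described in 7 lists, and none of them passed over all genes in limma. List medians lay between -0.22 and -0.01, and that of all genes tested was -0.02. In these lists too, each count at an unadjusted p under 0.05 stands against 13.2% lower and 5.82% higher among all genes. Each count of genes below 0 stands against 53.8% of all genes tested. The lists were not matched to all genes for brightness, and their values after quantile normalization are not given. All 12 subunits of the oligosaccharyltransferase, which transfers the glycan to the protein, had log2 fold changes below 0 (median -0.22), 5 of them (41.7%) at an unadjusted p under 0.05. DDOST, a subunit of that complex, measured 11.49 and 11.25 with miR-20a, against 11.86 and 11.81 with miR-NT (log2 fold change -0.47, limma adjusted p = 0.123). Trimming glucosidases and mannosidases had a median of -0.19 over 14 tested genes, 11 below 0, with 3 lower (21.4%) and 1 higher at that p. GANAB, the catalytic chain of glucosidase II, measured 10.98 and 10.62 with miR-20a, against 11.55 and 11.33 with miR-NT (log2 fold change -0.64, limma adjusted p = 0.115). MAN2A1, the Golgi mannosidase that acts between MGAT1 and MGAT2, was at -0.44 (limma adjusted p = 0.154) and MAN1C1 at 0.35 (limma adjusted p = 0.169).

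Genes listed as nucleotide sugar transporters had a median of -0.18 over 12 tested genes, with 4 lower (33.3%) and 1 higher at that p. The lower genes include SLC35B1 (-0.31), and the higher one is SLC35E1 (0.24). Whether each listed gene carries a nucleotide sugar was not checked. SLC35A2, which carries UDP-galactose into the Golgi, measured 6.13 and 5.82 with miR-20a, against 6.69 and 6.51 with miR-NT (log2 fold change -0.62, limma adjusted p = 0.105). Nucleotide sugar synthesis had a median of -0.13 over 23 genes, 16 below 0, with 5 lower (21.7%) and 2 higher at that p. UXS1, which makes UDP-xylose, measured 9.13 and 8.96 with miR-20a, against 9.41 and 9.35 with miR-NT (log2 fold change -0.34, limma adjusted p = 0.18). CMAS, which activates sialic acid, measured 7.77 and 7.06 with miR-20a, against 7.98 and 7.99 with miR-NT, and replicate 2 was far below replicate 1 (log2 fold change -0.57). Assembly of the dolichol-linked precursor had a median of -0.10 over 20 genes, with 4 of the 20 lower and 1 higher at that p. MPDU1, needed to use dolichol-linked mannose and glucose, measured 8.98 and 8.55 with miR-20a, against 9.66 and 9.41 with miR-NT, and was at -0.77 (limma adjusted p = 0.101). ALG9, a mannosyltransferase of the same route, was at 0.37 (limma adjusted p = 0.175).

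Golgi tethers and ion transporters had a median of -0.09 over 18 tested genes, with 2 lower (11.1%) and 1 higher at an unadjusted p under 0.05, and with TMEM165, a Golgi manganese and calcium transporter, at -0.60 (limma adjusted p = 0.0963). TMEM165 measured 9.30 and 9.09 with miR-20a, against 9.87 and 9.72 with miR-NT. Other glycosyltransferases and modifiers had a median of -0.01 over 26 tested genes, above that of all genes, with 2 lower at that p, OGT and B3GALNT1 (7.69%), and none higher. OGT, the enzyme of intracellular O-linked N-acetylglucosamine, was at -0.43 (limma adjusted p = 0.161). Replicate 2 was the lower miR-20a array in 10 of 12 oligosaccharyltransferase genes, 20 of 23 nucleotide sugar synthesis genes, 16 of 20 dolichol pathway genes, 11 of 14 trimming genes, 15 of 18 tethers and ion transporters and 9 of 12 nucleotide sugar transporters. It was the lower in 12 of 26 other glycosyltransferases and modifiers and in 26 of the 49 members. Over all genes tested it was the lower in 7309 of 12401. The part of array quality in these lists was not tested.

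**Figure D5:**
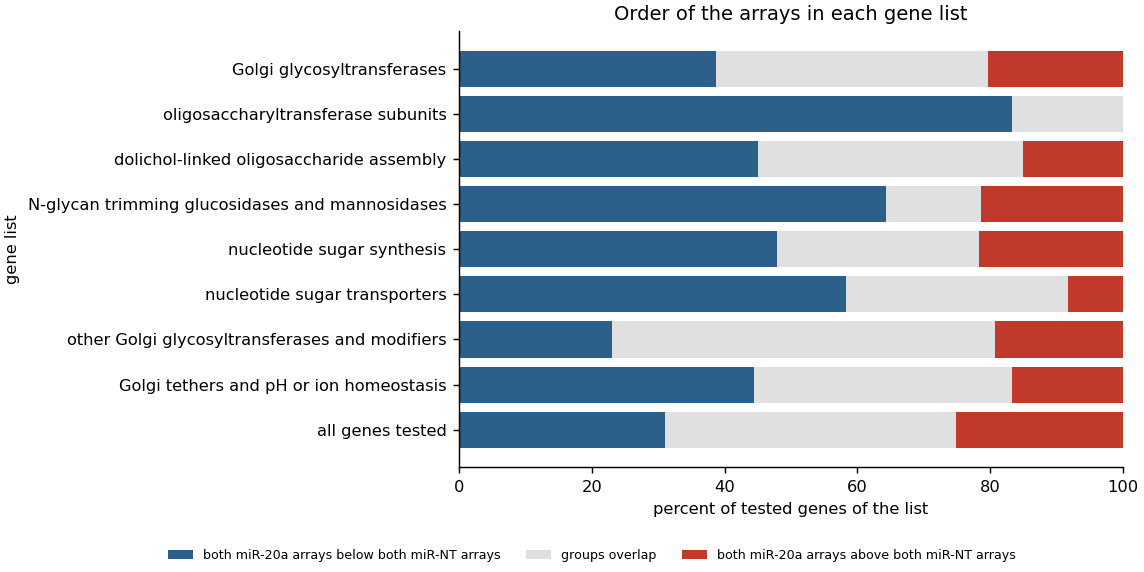
Share of tested genes (x axis, percent) with both miR-20a arrays below both miR-NT arrays, with overlap, or with both above, for the Golgi glycosyltransferases, 7 lists of related genes and all genes tested (y axis). The glycosyltransferases, at 38.8% lower and 20.4% higher, lie nearer to all genes (31.1% and 25.1%) than the oligosaccharyltransferase subunits do, at 83.3% lower and none higher.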

How the data were processed

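Total RNA of 4 samples was labelled with biotin for Affymetrix arrays, per the labels' protocols. Each probe set has 1 deposited value per array, on a log2 scale as judged from the range. Per the submitters' processing notes the authors used affy, an R package; its version, and how values were summarised and normalised, is not given in the sources used here. Array medians lay between 6.43 and 6.45, and the number of arrays limits the precision. The interquartile range was 3.06 and 2.92 on miR-20a replicates 1 and 2, and 3.14 and 3.03 on miR-NT replicates 1 and 2. Upper quartiles were 8.18 and 8.08 with miR-20a and 8.23 and 8.15 with miR-NT. The arrays thus differed in spread, and the part of this in the lower values of bright genes was not tested. Results after quantile normalization are given below. Names of probe sets came from the platform annotation and RefSeq gene identifiers (18060 with 1 gene symbol, 18034 identifiers matched). Genes (17716, 1 probe set each) were filtered at the lowest 30% by mean and compared in limma 3.58.1 under R 4.3.3 (lmFit, eBayes, two-sided, no covariate, Benjamini-Hochberg over 12401 genes, 2 residual degrees of freedom). Standard errors and intervals are those of this fit. With 2 arrays in each group the smallest exact permutation p is 0.333, so no such test was run. The fit was checked on simulated data.

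Members and lists were chosen with earlier results of these data known. Values on every array were given for members at an unadjusted p under 0.05, for the brightest tested member and that with the smallest p in each family, and other genes came from the 4 with the smallest p in each pathway list. Which of those 4 are described, and members outside this rule, were chosen after their values were seen. Brightness of different probe sets was not compared as expression. Alternatives were quantile normalization, median centring, other filters, averaged probe sets, a robust prior with an intensity trend, the replicate number as a block, the ACTB 5' control as a covariate, and each array left out.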

Additional observations from a re-analysis of the deposited data

How the results depend on the processing

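The number of genes called over all genes varied between settings. It was 1 lower and 0 higher as reported, 5 lower after quantile normalization, 45 lower and 2 higher after median centring, 4 lower with the dimmest 50% left out, 23 lower and 1 higher with an intensity trend and robust prior, 0 lower with the replicate block (3151 genes at an unadjusted p under 0.05 in limma), and 5 lower and 1 higher with the ACTB 5' covariate. With an array left out it ranged from 0 to 1567 lower and from 0 to 302 higher. Such fits take a group's spread from the other group. Among them, genes were called only where a miR-20a array was left out, and there in large numbers. Passing in those fits therefore does not set a member apart from other genes. The cause of these shifts was not tested. Members called lower were 1, FUT8, under quantile normalization, median centring, the stricter filter and the intensity trend, 0 under the other settings with all arrays, and 0 to 6 with an array left out. FUT8, MGAT4B, MGAT2, ST6GALNAC4, B4GALT4 and B3GNT9 passed without miR-20a replicate 1, and FUT8, MGAT4B and GALNT10 without miR-20a replicate 2; 0 were called higher. At an unadjusted p under 0.05, genes in either direction were 2355 of 12401 as reported and 3034 after quantile normalization. They were 3019 of 17716 without a filter and 1823 of 8858 with the stricter filter. With the mean of probe sets they were 2349, and with the covariate 846. The member counts that follow were not separated from these shifts. Members lower and higher were 10 and 1 as reported, 8 and 5 after quantile normalization, and 10 and 2 without a filter. They were 10 and 0 with the stricter filter, 8 and 0 with the mean of probe sets, and 4 and 2 with the covariate. With an array left out 5 to 10 were lower and 0 to 2 higher.

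The median over tested members was -0.051 after quantile normalization, -0.038 without a filter, -0.14 with the stricter filter and -0.013 with the covariate, where those of all genes were 0.027, 0.0034, -0.044 and 0.047. It ranged from -0.13 to -0.051 with an array left out. Without a filter the medians were -0.012 for B3GALT, 0.015 for ST6GAL, -0.10 for ST8SIA, 0.022 for MGAT and 0.00084 for GALNT. With the stricter filter they were -0.13 for FUT, -0.20 for B3GNT and -0.17 for GALNT. With the covariate they were 0.15 for FUT, 0.0021 for B3GNT, 0.087 for B3GALT, 0.0098 for MGAT and 0.0061 for GALNT. They were -0.043 for GCNT, -0.25 for ST6GAL and -0.25 for ST8SIA with the covariate. The ST8SIA family had 2 tested members, ST8SIA5 and the antisense RNA ST8SIA6-AS1. With the mean of probe sets ST8SIA5 fell under the filter, and the antisense RNA alone was left, at -0.078. With an array left out the family medians ranged from -0.13 to 0.076 for FUT, from -0.16 to 0.034 for ST6GAL, from -0.049 to 0.18 for GCNT, from -0.024 to 0.23 for ST8SIA and from -0.13 to -0.016 for GALNT; those of the other families stayed below 0. The covariate turned the direction of B3GALT4 (0.087), B3GNT9 (0.18), GCNT2 (-0.043) and MGAT2 (0.0098). ST6GALNAC2 was at 0.00041 after quantile normalization and from -0.19 to 0.11 with an array left out, and MGAT1 from -0.039 to 0.084. FUT8 lay between -0.97 and -0.90 in all alternatives.

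The replicate numbers come from the titles, and nothing says what same-numbered arrays share. Their deviations from the group means had a Pearson's r of 0.267 across genes, which are not independent replicates. With the replicate block no member was called, and log2 fold changes were as reported.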

Other observations

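Exactly equal values on both arrays of a group occurred in 57 of the 12401 genes tested. One of them is a member, B4GALT6, at 6.59 on both miR-20a arrays, and the equality makes the spread of that pair 0. MGAT3, which was too dim to be tested, measured 5.36 on miR-20a replicate 1 and 5.36 on miR-NT replicate 1.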
